A study of Mus musculus with 2 samples.

Results

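Sinusoidal-type endothelial cells of young mouse bone marrow were examined here. They were chosen from single-cell counts by a fixed rule on 10 genes. Barcodes counted as cells when they held 1000 genes or more and no more than 15% of their transcripts were mitochondrial. It was called endothelial when Cdh5, Egfl7 and Emcn together reached at least 5 UMIs per 10000, with at least 1 Cdh5 UMI and at most 1 UMI of Ptprc, the pan-leukocyte gene. A UMI is a molecular tag by which reads of 1 captured transcript are counted once. An endothelial cell was a member when its summed UMIs of Stab1, Stab2 and Gpr182 exceeded those of Ly6c1, Sema3g and Gja4. The rule found 25 members in mouse 1 and 28 in mouse 2, in all 53 of 285 endothelial cells and of 7332 cells. In mouse 1 they made up 17.0% of endothelial cells (exact 95% binomial interval 11.3 to 24.1%). The share in mouse 2 was 20.3% (13.9 to 28.0%). The remaining endothelial cells were 229 with the opposite balance, called arterial-type here, and 3 with equal sums.

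The 2 mice formed a single group. Both were examined at postnatal day 28 after tamoxifen at postnatal day 21, and both carried the Cxcl12 GFP/+ allele, the Cxcl12-iCreER transgene and the R26R tdTomato/+ reporter. The GFP allele is a knock-in that leaves 1 intact copy of Cxcl12, and the recombinase was expressed from a bacterial artificial chromosome transgene. Femur cells were released by enzymes after removal of the distal growth plates, sorted for GFP, and made into 1 droplet library per mouse. The sort selects cells by reporter level, so the shares above are shares of sorted cells, not of the marrow. A field of the labels names tdTomato+ instead of GFP+ cells for the sort. Classes of cells from the same 2 animals were therefore compared with each other, and the mouse was the replicate.

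Bone marrow sinusoids are thin-walled, fenestrated venous vessels that collect blood from the marrow and let mature blood cells leave it. Their endothelial cells take up waste molecules through scavenger receptors and degrade them in lysosomes. They also display adhesion molecules for circulating cells and lie beside reticular cells, the perivascular stromal cells that make most of the marrow's CXCL12 and stem cell factor. Arteries and arterioles run separately, with endothelial cells that depend on Notch signalling.

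The 10 genes of the rule describe the members and were not tested. Stab1 and Stab2 encode stabilins, scavenger receptors for hyaluronan and modified proteins, and Gpr182 encodes a receptor that binds chemokines. Every member held Stab2, with a median of 17 UMIs per cell in mouse 1 and 8.5 in mouse 2. Stab1 had medians of 14 and 9.5 UMIs and was at 0 in 1 member of each mouse. Gpr182 was the sparsest of the group, with medians of 4 and 2 UMIs and no UMI in 2 and 6 members. The junction gene Cdh5 had medians of 15 and 13 UMIs, and Emcn, a sialomucin of venous and sinusoidal endothelium, 6 and 7.5. Neither was particular to members. Arterial-type cells, of lower median depth, had medians of 11 and 14 UMIs of Cdh5 and 4 and 5 of Emcn.

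The gate sums of the members varied widely. The summed Stab1, Stab2 and Gpr182 UMIs ranged from 2 to 78 in mouse 1 (median 36) and from 1 to 130 in mouse 2 (median 20.5). The opposing sum was 0 in 20 of 25 and 21 of 28 members, and neither Sema3g nor Gja4 had a UMI in any member. Among arterial-type cells Stab2 was at 0 in 117 of 121 and 107 of 108. Near the threshold, the members just inside exceeded the opposing sum by 2 UMIs in mouse 1 and by 1 UMI in mouse 2. Just outside lay 3 cells with equal sums and 2 arterial-type cells of mouse 2 whose margin was 1 UMI in the other direction.

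**Figure D1:**
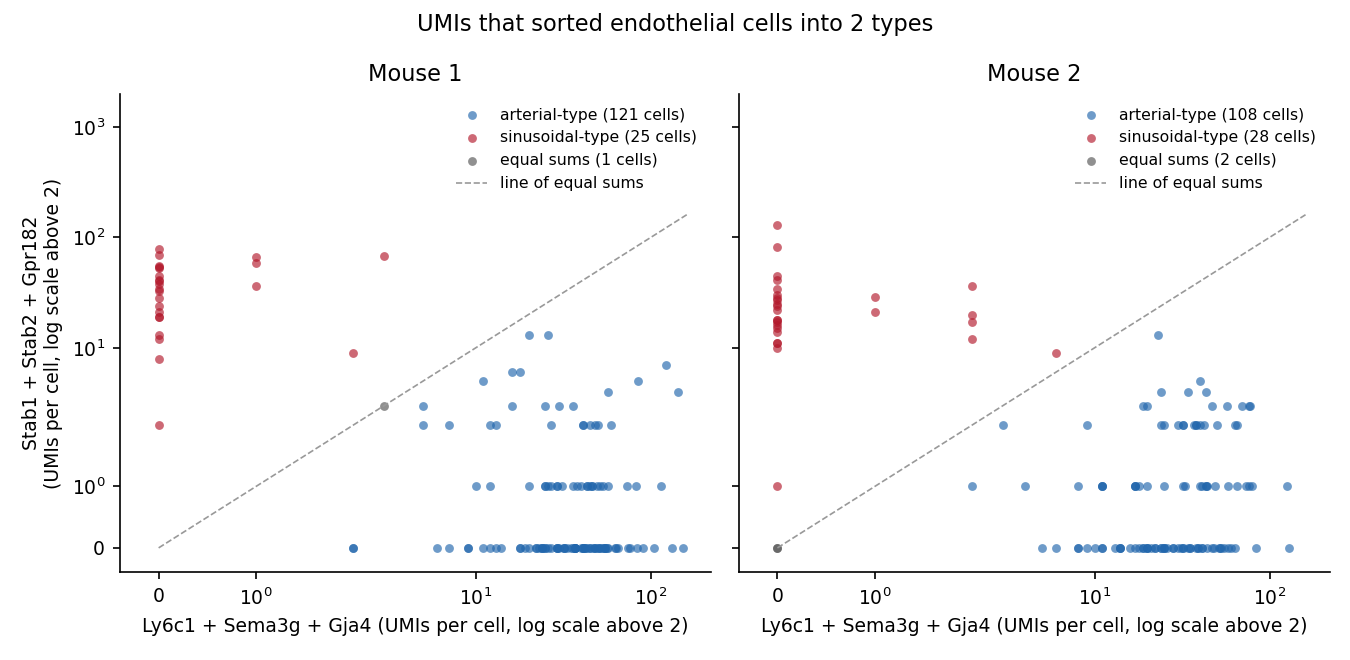
Summed UMIs of Stab1, Stab2 and Gpr182 per cell (vertical axis) against those of Ly6c1, Sema3g and Gja4 (horizontal axis) for all endothelial cells of each mouse, both axes logarithmic above 2 UMIs. Members lie above the dashed line of equal sums, most of them at 0 on the horizontal axis, and 1 and 2 cells lie on the line.

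The members were deep and endothelial in their other genes. They held a median of 14656 UMIs and 3853 genes per cell in mouse 1 and 13315 UMIs and 3668.5 genes in mouse 2, with 3.35% and 4.28% mitochondrial UMIs. Arterial-type cells held medians of 10223 and 11227 UMIs, so levels are given as UMIs per 1000000 UMIs of the summed cells of a class, here CPM. The libraries held 54940400 and 88790688 UMIs in all, and the 7 cell barcodes that they shared included no member. The 15 pan-endothelial genes outside the rule summed to 7487 and 6668 CPM in members, against 8176 and 7218 CPM in arterial-type cells, 176 and 185 CPM in reticular cells and 130 and 134 CPM in blood cells. Blood cells were those with at least 2 Ptprc UMIs, no Cdh5 UMI and Adipoq and Lepr below the reticular limit, and reticular cells those with at least 5 UMIs per 10000 of Adipoq and Lepr, no Cdh5 UMI and at most 1 Ptprc UMI.

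Marker lists of other cell types showed where members were mixed. The 10 macrophage genes summed to 36.4 and 23.5 CPM in members, against 6845 and 7147 CPM in blood cells, and C1qa, Csf1r and Adgre1 had no UMI. Neutrophil genes were at 218 and 148 CPM, and mural genes at 27.3 and 116 CPM with Rgs5 at 0. Lymphatic genes were at 34.1 and 64.2 CPM, from Prox1 and Lyve1, with Pdpn at 0. That sum was above those of arterial-type cells (18.7 and 23.1 CPM) and reticular cells (3.16 and 5.50 CPM). Erythroid genes summed to 414 and 270 CPM with Alas2 at 0, megakaryocyte genes to 61.4 and 15 CPM, and B cell genes to 2.27 and 8.56 CPM. The 12 reticular genes summed to 3140 and 5712 CPM and the 5 osteoblast genes to 4002 and 3758 CPM, against 1961 and 2269 CPM and 102 and 501 CPM in arterial-type cells.

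These stromal transcripts were held by some members more than others. A member with at least 5 UMIs per 10000 of Adipoq and Lepr, or of Ibsp and Bglap, is called mixed here. Mixed members numbered 4 of 25 in mouse 1 (16.0%, exact 95% interval 4.54 to 36.1%) and 14 of 28 in mouse 2 (50%, 30.6 to 69.4%). Among arterial-type cells 3 of 121 (2.48%) and 6 of 108 (5.56%) were mixed by the same limits. Mixed members had median depths of 21947.5 and 15844.5 UMIs, against 14505 and 11428.5 UMIs in the others. A single member held 1295 of 1347 Col1a1 UMIs in mouse 1, and another 1124 of 1361 in mouse 2. Leaving mixed cells out of both endothelial classes lowered the reticular sum in members to 1683 and 1213 CPM and the osteoblast sum to 138 and 213 CPM. Results are given with and without them where a call differed.

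The first comparison asked how sinusoidal-type cells differed from arterial-type cells of the same mice. UMIs were summed per mouse and class and tested with edgeR's quasi-likelihood test with Benjamini-Hochberg adjustment, leaving out the 10 genes of the rule. Of 8501 genes tested, 858 were higher in sinusoidal-type cells (10.1%) and 703 lower (8.27%) at an adjusted p under 0.05, and the median log2 fold change over all genes was -0.02. These shares over all genes are the background for the list counts of this comparison. Without mixed cells the calls were 759 higher (9.55%) and 655 lower (8.24%) of 7947 tested, and 1178 were shared in direction, 75.5% of the main calls and 83.3% of the others. When the rule was applied to 1 random share of each cell's UMIs and the test to the rest, 1129 genes were called and 1019 were shared, 65.3% and 90.3% of the lists.

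Several scavenger receptors and most lysosomal genes tested were higher in sinusoidal-type cells. Of 15 scavenger and endocytic receptors, 11 passed the filter on low counts, 5 were higher and 1 lower, with a median log2 fold change of 1.73. The rule had already selected for the scavenger receptor genes Stab1 and Stab2, which are not in the list. Mrc1, the mannose receptor, stood at 934 and 715 CPM in members against 10.7 and 4.62 CPM in arterial-type cells and 1.12 and 0.737 CPM in reticular cells. It was higher by 6.82 on the log2 scale (SE 0.36) with an edgeR adjusted p of 1.1e-04. All 53 members held it, as did 18 of 409 and 22 of 378 blood cells. Dab2, a clathrin adaptor, was at 582 and 576 CPM against 178 and 164 CPM (log2 fold change 1.85), and Ehd3, a recycling ATPase, at 111 and 83.5 CPM against 8.70 and 13.9 CPM (3.18). Fcgr2b, the inhibitory Fc receptor, was higher with 100 and 19.3 CPM against 1.34 and 2.64 CPM, but too few UMIs remained for a test without mixed cells. Colec12, a scavenger collectin, was called higher with all cells and not without mixed cells (edgeR adjusted p = 0.18). Cd36, the fatty acid and lipoprotein scavenger, was at 450 and 389 CPM against 305 and 141 CPM and was not called (adjusted p = 0.088), but was called without mixed cells and with the mouse as a block (edgeR adjusted p = 2.4e-04). Lyve1, at 4.54 and 10.7 CPM, did not reach the filter, and Cd209f and Clec4g, receptors of liver sinusoids, had no UMI in members.

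The degradation genes moved with the receptors against arterial-type cells, but less so against reticular cells. Of 11 lysosomal genes tested of 12, 8 were higher and 1 lower than in arterial-type cells, with a median log2 fold change of 1.13. Against reticular cells 4 of 12 were higher and 2 lower, with a median of 0.09. Lamp2, for example, was at 473 and 407 CPM in members and 474 and 495 CPM in reticular cells. Ctsl, a cysteine cathepsin, was at 2600 and 2003 CPM against 449 and 569 CPM (log2 fold change 2.27, SE 0.20, edgeR adjusted p = 6.2e-04). Ctsb was at 1645 and 1340 CPM against 333 and 425 CPM, and Lgmn, which encodes legumain, at 866 and 621 CPM against 117 and 116 CPM. In all 3 genes both mice had members above arterial-type cells by more than the mice differed from each other. Psap, the saposin precursor, was higher by 1.13 on the log2 scale. Lipa, the acid lipase, went the other way, with 27.3 and 34.2 CPM against 81.0 and 85.2 CPM, and its call was lost with DESeq2. The calls of Ctsd, Ctsh, Lamp2 and Npc2 were lost when no filter on low counts was applied. Npc2, a cholesterol carrier of lysosomes, was at 277 and 349 CPM against 177 and 217 CPM and was not called without mixed cells (edgeR adjusted p = 0.14), and reticular cells held 622 and 512 CPM.

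Transcription factors and receptors of venous identity were raised, and arterial ones were low. Of 11 venous and sinusoidal genes tested of 12, 9 were higher and none lower, with a median log2 fold change of 3.26. Over all genes tested 10.1% were higher. The rule had already selected for Stab1, Stab2 and Gpr182, which are not in the list, and the lists were chosen with earlier results of these data known. The count therefore describes the members and is not independent support for their type. Nr2f2, the venous fate factor COUP-TFII, was at 339 and 315 CPM against 36.8 and 31.7 CPM (log2 fold change 3.34, SE 0.19, edgeR adjusted p = 1.1e-04). Flt4, the receptor of VEGF-C, was at 723 and 488 CPM against 58.9 and 44.9 CPM, with a log2 fold change of 3.63. The transcription factor gene Maf was higher by 3.26, Nrp2, a co-receptor of VEGF-C, by 1.97 and Tspan7 by 2.77. Il6st, the shared receptor chain of the interleukin-6 family, was at 1909 and 1770 CPM against 201 and 157 CPM.

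Adamts5 and Tfpi showed 2 of the widest gaps in this group. Adamts5, a protease of matrix proteoglycans, was at 3108 and 2363 CPM in members against 16.1 and 66.7 CPM in arterial-type and 192 and 170 CPM in reticular cells. Against arterial-type cells it was higher by 6.13 on the log2 scale (SE 0.60) with an edgeR adjusted p of 8.3e-04, and all 53 members held it. Tfpi, the inhibitor of the tissue factor pathway, was at 3152 and 2384 CPM against 97.7 and 81.9 CPM, with a log2 fold change of 5.03. Ephb4, a venous receptor of ephrin-B2, was at 75 and 113 CPM against 108 and 87.2 CPM and was not called (log2 fold change 0.05, SE 0.26). Plvap, which forms the diaphragms of fenestrae, was at 1157 and 1091 CPM against 959 and 707 CPM, with an edgeR adjusted p of 0.11 that became 0.0088 with the mouse as a block and 0.041 without mixed cells. Gata4, a factor of liver sinusoids, had no UMI in any class. Prox1, a lymphatic gene outside this list, was not called (log2 fold change 1.09). It was called higher with the mouse as a block and without mixed cells, and also against reticular cells.

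The 20 arterial genes were all tested, and 17 were lower and none higher in sinusoidal-type cells, with a median log2 fold change of -3.14. The rule had already required low counts of 3 genes of this vessel type, which are not in the list. Gja5, a gap junction gene, had no UMI in members against 114 and 158 CPM in arterial-type cells, at least 16.7-fold lower with a floor of 3 UMIs per library. Jag2, a Notch ligand, was at least 11-fold lower on the same floor, with 112 and 70.7 CPM in arterial-type cells. Cd34, a sialomucin, was at 4.54 and 27.8 CPM against 703 and 733 CPM (log2 fold change -5.34), and Ly6a, which encodes Sca-1, at 90.9 and 89.9 CPM against 1971 and 1667 CPM (-4.24). Efnb2, which encodes ephrin-B2, Sox17, an arterial fate factor, and the kinase gene Bmx were lower, with log2 fold changes of -3.17, -3.55 and -4.44. Hes1 and Notch1 were not called, at log2 fold changes of -0.11 and -0.62, and Notch1 was called with the mouse as a block (edgeR adjusted p = 0.013). Igfbp3 was at 118 and 469 CPM against 938 and 1404 CPM, with an edgeR adjusted p of 0.056 that became 1.1e-07 with the mouse as a block.

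The Notch pathway list overlapped the arterial list. Of its 14 genes tested of 16, 3 were higher and 6 lower, and of the lower genes only Nrarp, a feedback regulator, was not also in the arterial list. The ligand gene Dll1 was at 102 and 103 CPM in members against 50.9 and 38.3 CPM (log2 fold change 1.29), while Dll4 was at 61.4 and 34.2 CPM against 208 and 162 CPM (-1.86). The target gene Hey1 and the receptor gene Notch4 were lower, with log2 fold changes of -3.27 and -3.12. Lfng and Rbpj were higher by 1.34 and 1.06, and both calls were lost with DESeq2. Those of Dll1, Dll4 and Hey1 were lost without the filter on low counts.

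**Figure D2:**
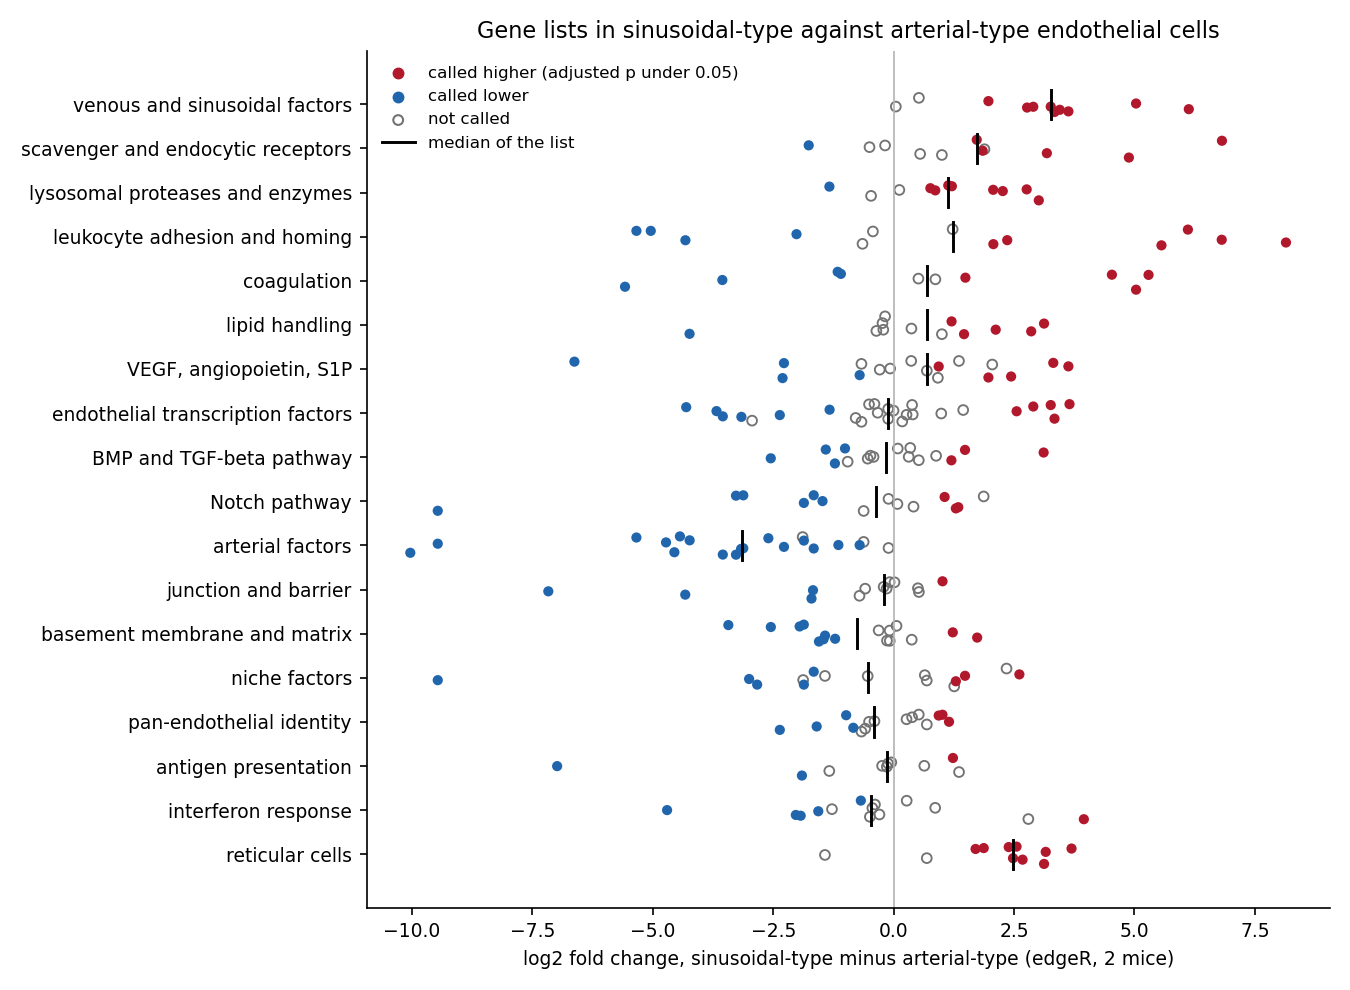
Fitted log2 fold change of each tested gene of 18 lists in sinusoidal-type against arterial-type cells (horizontal axis), with filled points for genes called by edgeR at an adjusted p under 0.05, open points for genes not called and a bar at each list's median. The venous and sinusoidal list has its median at 3.26 and the arterial list at -3.14, and points beyond about 7 on either side include genes without a UMI in 1 class, whose fitted values depend on the prior count.

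Adhesion genes separated into a raised and a lowered set. Of 13 genes tested of 14, 6 were higher and 4 lower, with a median log2 fold change of 1.23. Selp, which encodes P-selectin, a leukocyte tether, was at 577 and 640 CPM in members against 4.02 and 7.27 CPM in arterial-type cells (log2 fold change 6.81, SE 0.30, edgeR adjusted p = 8.5e-05). It was found in 22 of 25 and 27 of 28 members, against 31 of 409 and 31 of 378 blood cells. Sele, which encodes E-selectin, was at 116 and 131 CPM against 3.35 and 1.98 CPM (log2 fold change 5.56). Both genes lie on chromosome 1 on the same strand, Sele at chr1:164048234-164057677 and Selp at chr1:164115264-164150026 of mm10, 57.6 kb apart. Ackr1, a chemokine-binding receptor of venules, was at 325 and 253 CPM against 1.34 and 7.27 CPM (log2 fold change 6.11) and was held by 21 and 19 members and by 0 and 2 blood cells. Vcam1 and Icam1, which bind leukocyte integrins, were higher by 2.36 and 2.07. Vcam1 was higher still in reticular cells, at 1700 and 1594 CPM against 468 and 535 CPM in members. Madcam1 was held by 4 and 3 members and by no arterial-type cell, and too few UMIs remained for a test without mixed cells.

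The lowered adhesion genes were Cd34, Podxl, Icam2 and Jam2. Podxl, a sialomucin of arterial and other lumens, was at 27.3 and 34.2 CPM against 687 and 635 CPM, with a log2 fold change of -4.32. Icam2, the ligand of resting leukocyte integrins, was at 157 and 116 CPM against 577 and 596 CPM. Jam2, a junctional adhesion gene, had no UMI in members of mouse 1 and 10.7 CPM in mouse 2, against 252 and 143 CPM. Its call, like that of Icam1, was lost when no filter on low counts was applied.

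The 250 bases before the start of Selp, Sele and Fgf23 are shown because these genes were high in members and nearly or wholly without UMIs in arterial-type cells, and because the selectin genes are neighbours. The sequences are from RefSeq (GRCm38.p6, the build of mm10), 5′ to 3′ on the plus strand, on which all 3 genes lie, and each ends at the base before the start. Capitals mark matches, on either strand, to ETS (AGGAAG), MAF (TGCTGA), COUP-TF (AGGTCA) and SOX (ACAATG) letters. No match here overlapped another.
Selp, chr1:164115014-164115263: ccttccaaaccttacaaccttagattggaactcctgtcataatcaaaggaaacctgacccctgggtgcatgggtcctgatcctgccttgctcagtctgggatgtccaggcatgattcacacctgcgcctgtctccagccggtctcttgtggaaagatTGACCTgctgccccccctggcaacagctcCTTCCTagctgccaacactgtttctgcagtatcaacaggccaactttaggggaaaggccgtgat
Sele, chr1:164047984-164048233: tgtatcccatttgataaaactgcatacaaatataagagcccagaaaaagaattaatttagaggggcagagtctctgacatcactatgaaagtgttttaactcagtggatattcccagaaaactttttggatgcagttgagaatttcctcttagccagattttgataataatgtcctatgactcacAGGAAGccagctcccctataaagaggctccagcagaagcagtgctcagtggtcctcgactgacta
Fgf23, chr6:127072652-127072901: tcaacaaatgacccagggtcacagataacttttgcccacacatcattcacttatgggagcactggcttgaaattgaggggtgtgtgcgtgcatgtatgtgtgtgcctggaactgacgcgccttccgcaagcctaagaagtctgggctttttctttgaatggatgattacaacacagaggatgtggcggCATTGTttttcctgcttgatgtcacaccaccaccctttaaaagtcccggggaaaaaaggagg
The Selp window held 1 ETS and 1 COUP-TF match, both on the opposite strand, the Sele window 1 ETS match on the same strand, and the Fgf23 window 1 SOX match on the opposite strand. The ETS letters stood in 29.2% of 27025 promoter windows of this length and in 27.1% of those of genes tested (6572 of 8501 matched). They stood in 32.1% of those of genes called higher (648 of 858 matched) and in 26.1% of those called lower (529 of 703 matched). In the same order, the COUP-TF letters stood in 13.8%, 9.63%, 11.4% and 10.8% of windows. The MAF letters stood in 15.8%, 11.5%, 14.5% and 11.3%, and the SOX letters in 11%, 5.51%, 6.48% and 5.67%. These are descriptions of letters and were not tested.

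Genes outside the lists were named by a rule of size, the 15 with the largest and the 10 with the smallest log2 fold change among called genes at 50 CPM or more in the higher class in both mice. Fgf23 led, the gene of the phosphate-regulating hormone. It was at 245 and 169 CPM in members and had no UMI in arterial-type or blood cells, at least 85.3-fold higher than in arterial-type cells on a floor of 3 UMIs per library. Reticular cells held 0.243 and 0.369 CPM. Fgf23 was found in 13 of 25 and 10 of 28 members, with up to 25 and 23 UMIs in a cell, so its level came from a part of the members. The gene lies at chr6:127072902-127081408 of mm10 on the plus strand.

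Several receptors and channel genes followed. Kcnj8 and Abcc9, the pore and the regulatory subunit of an ATP-sensitive potassium channel, were raised together. Kcnj8 was at 429 and 633 CPM against 14.7 and 8.59 CPM in arterial-type cells (log2 fold change 5.59), and Abcc9 at 838 and 693 CPM against 14.1 and 20.5 CPM (5.55). All 53 members held Abcc9 and 51 held Kcnj8, and the genes lie 16.2 kb apart on the minus strand of chromosome 6, Kcnj8 at chr6:142564837-142571614 and Abcc9 at chr6:142587862-142702315. Adgrg6, an adhesion G protein-coupled receptor, was at 348 and 259 CPM against 0 and 0.660 CPM, a ratio of 908 with an exact 95% interval of 162 to 36005 that covers counting error only. Il13ra2, a decoy receptor of interleukin-13, was at 111 and 77.0 CPM with a log2 fold change of 5.81, and Cxadr, a junctional virus receptor, at 400 and 267 CPM against 0 and 2.64 CPM (7.93).

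Secreted and other products completed the raised set. Sema3a, a repellent semaphorin, was at 507 and 265 CPM against 0.669 and 0.660 CPM, a ratio of 575 (158 to 4768). Dnase1l3, an extracellular deoxyribonuclease, was at 664 and 518 CPM against 7.36 and 5.28 CPM (log2 fold change 6.61, SE 0.28). Dnase1l3 and Gpm6a, a membrane glycoprotein at 550 and 477 CPM against 6.69 and 13.9 CPM, were held by all 53 members. Mmrn1, which encodes a multimerin that binds factor V, was higher by 5.89 on the log2 scale, Igfbp2 by 5.70 and Rgs4, a regulator of G protein signalling, by 6.36. Slc16a9 had a ratio of 86.2 (22.7 to 731). Ubd, a ubiquitin-like gene, was at 600 and 310 CPM against 0 and 11.2 CPM, and its call was lost with DESeq2 and without the filter.

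The 10 named genes on the low side were at or near 0 UMIs in members. Stmn2, a microtubule regulator, had no UMI in members against 470 and 497 CPM in arterial-type cells, at least 68.9-fold lower. Egfl8 was at least 28.2-fold, Car7 16.8-fold and Dkk2, a Wnt antagonist, 13.2-fold lower. Ptprr, St8sia6, Aif1l and Nov also had no UMI in members, with bounds from 9.05-fold to 11.8-fold, and the call of St8sia6 was lost without the filter on low counts. Fbln2, a basement membrane fibulin, had 1 UMI in members against 987 and 824 CPM, a ratio of 821 (147 to 32433), and Sparcl1, a matrix protein gene, had 3 UMIs against 885 and 817 CPM, a ratio of 257 (88.0 to 1249).

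**Figure D3:**
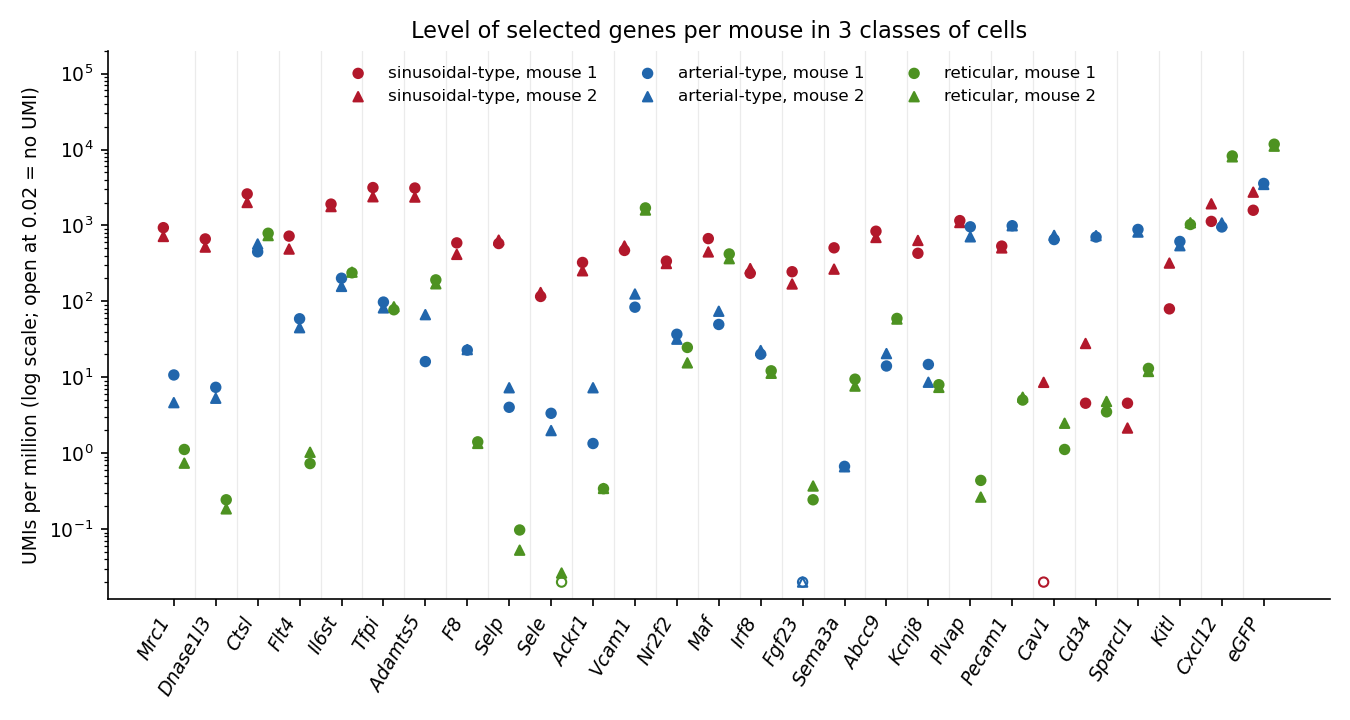
CPM of selected genes on a logarithmic axis in sinusoidal-type, arterial-type and reticular cells, with circles for mouse 1 and triangles for mouse 2 and open symbols for no UMI. Mrc1, Selp, Ackr1 and Fgf23 are highest in members in both mice, Cav1, Cd34 and Sparcl1 are highest in arterial-type cells, and Cxcl12 and eGFP are highest in reticular cells.

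Coagulation genes were divided evenly. Of 10 genes tested of 11, 4 were higher and 4 lower. F8, the gene of coagulation factor VIII, was at 589 and 415 CPM in members against 22.8 and 23.1 CPM (log2 fold change 4.53, SE 0.25, edgeR adjusted p = 1.1e-04). Tfpi2, a protease inhibitor, was at 486 and 188 CPM against 8.03 and 9.91 CPM, and Thbd, which encodes thrombomodulin, at 495 and 443 CPM against 178 CPM in both mice. Vwf, whose product carries factor VIII in blood, was at 4.54 and 2.14 CPM in members against 46.2 and 39.6 CPM, a ratio of 13.0 in favour of arterial-type cells (4.34 to 63.7). Plat, the gene of tissue plasminogen activator, had 2 UMIs in members, a ratio of 53.7 (14.8 to 445). Anxa2 and S100a10, which together form a plasminogen receptor, were lower, with log2 fold changes of -1.16 and -1.10, and the call of S100a10 was lost without the filter on low counts.

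Among junction genes the caveolar ones stood out. Cav1, the main caveolin, had no UMI in the 25 members of mouse 1 and was held by 4 of 28 in mouse 2, at 8.56 CPM, against 651 and 738 CPM in arterial-type cells (log2 fold change -7.17, SE 0.53, edgeR adjusted p = 3.2e-04). Cav2 and Cavin1, a coat protein of caveolae, were lower too, with log2 fold changes of -4.33 and -1.71. Cavin2, another cavin, was at 443 and 417 CPM against 500 and 406 CPM and was not called. Cldn5, a tight junction claudin, was higher, at 2293 and 2397 CPM against 1345 and 1131 CPM (log2 fold change 1.01). In all, 1 of 13 junction genes tested was higher and 4 were lower.

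Pan-endothelial genes were called in both directions. Of 15 tested, 3 were higher and 4 lower, with a median log2 fold change of -0.40. Kdr, the main VEGF receptor, was at 1118 and 721 CPM against 554 and 468 CPM (log2 fold change 0.94, SE 0.23, edgeR adjusted p = 0.032), and the call was lost without the filter on low counts. Pecam1, an endothelial adhesion gene, was at 534 and 505 CPM against 990 and 989 CPM and was not called without mixed cells (edgeR adjusted p = 0.082). Sox18, Ramp2, a co-receptor of adrenomedullin, and the phosphatase gene Ptprb were lower, with log2 fold changes of -2.36, -1.60 and -0.99, while the guidance receptor gene Robo4 was higher by 1.15. Flt1, the decoy VEGF receptor, was at 943 and 743 CPM against 1220 and 972 CPM and was not called. Tek, the angiopoietin receptor gene, was at 295 and 229 CPM against 195 and 151 CPM, with an edgeR adjusted p of 0.065, 0.0077 with the mouse as a block and 0.0078 without mixed cells.

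Of 26 endothelial transcription factors tested of 28, 5 were higher and 6 lower. Besides Nr2f2 and Maf, the higher genes included Irf8 and Foxc1. Irf8, better known from myeloid cells, was at 234 and 270 CPM in members against 20.1 and 22.5 CPM (log2 fold change 3.65). A single member of mouse 2 held 43.7% of the Irf8 UMIs there. The part of blood cell RNA in these values was not tested. Lmo2, a partner of Tal1, was at 20.5 and 17.1 CPM against 358 and 438 CPM (log2 fold change -4.31), and Tcf15 was also lower (-3.68). Erg, Fli1, Ets1, Klf2 and Klf4 were not called, with log2 fold changes from -0.11 to 0.38.

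Lipid genes were raised in part. Of 12 tested, 5 were higher and 1 lower. Fabp4, a fatty acid carrier, was at 7776 and 7109 CPM in members against 2342 and 1310 CPM (log2 fold change 2.12, SE 0.27, edgeR adjusted p = 0.0022). Apoe was at 1797 and 2208 CPM against 315 and 276 CPM, and Abca1, a cholesterol exporter, at 348 and 389 CPM against 159 and 182 CPM. Lpl, the lipoprotein lipase gene, was at 614 and 663 CPM against 62.9 and 93.1 CPM, but reticular cells held 4126 and 2935 CPM and the part of their RNA in this value was not tested. Lpl was also higher without mixed cells (log2 fold change 2.84, edgeR adjusted p = 2.4e-04).

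More matrix genes were lower than higher. Of 16 tested, 2 were higher and 8 lower, with a median log2 fold change of -0.76. The type IV collagen genes Col4a1 and Col4a2, which form the basement membrane, were lower, with log2 fold changes of -1.21 and -1.42. Vim, the intermediate filament gene vimentin, was at 720 and 897 CPM against 7740 and 10898 CPM (log2 fold change -3.43), and Fn1, the fibronectin gene, was lower too (-2.55). Nid1, a basement membrane linker, was the exception, at 689 and 486 CPM against 197 and 178 CPM (log2 fold change 1.73), with Mmp14, a membrane protease gene, higher by 1.23. The calls of Col4a1 and Mmp14 were lost without the filter on low counts. In the BMP and TGF-beta list 3 of 16 genes tested were higher and 4 lower. Tgfbr3, a co-receptor, was at 327 CPM in both mice against 27.4 and 52.8 CPM, while Id1, a BMP target, was at 45.4 and 34.2 CPM against 275 and 223 CPM.

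Antigen presentation and interferon genes were called in both directions. Over all genes tested 10.1% were higher and 8.27% lower, so a count of 1 in the lists below lies near that background. In the antigen presentation list 1 of 10 genes tested was higher and 2 lower, with B2m, the shared light chain of class I molecules, at 2747 and 2114 CPM against 1023 and 1180 CPM. Neither lower gene, H2-Ab1 or Cd40, was called without mixed cells. In the interferon list 1 of 14 was higher and 5 lower. Isg15 was at 68.2 and 55.6 CPM against 181 and 209 CPM (log2 fold change -1.56), and Irf7 was lower too (-2.03), a call lost after thinning. The higher gene, Cxcl10, had too few UMIs for a test without mixed cells. No immediate early gene was higher and 1 of 14 was lower, while 2 of 10 heat shock genes were lower. Of 14 cell cycle genes tested, none was higher and 4 were lower. Their levels were small, with Mki67 at 2.27 and 8.56 CPM against 25.4 and 60.1 CPM, and of these 4 only Ccnb2 was called without mixed cells.

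Among niche factors, 3 of 15 genes tested of 24 were higher and 5 lower. Without mixed cells the call of Bmp4 was lost and that of Kitl gained. Cxcl12, which holds blood stem cells in the marrow, was at 1129 and 1926 CPM in members, 954 and 1077 CPM in arterial-type cells, 8225 and 8005 CPM in reticular cells and 128 and 137 CPM in blood cells. Members lay above arterial-type cells in both mice (log2 fold change 0.69, SE 0.27), which missed the threshold (edgeR adjusted p = 0.12) and passed it with the mouse as a block (0.0028). Without mixed cells Cxcl12 was at 602 and 366 CPM in members and the log2 fold change was -0.83 (edgeR adjusted p = 0.056). Mixed members held 2752 and 3114 CPM. Members without an Adipoq or Lepr UMI, 9 and 3 cells, held 163 and 80.2 CPM, against 943 and 992 CPM in 83 and 75 arterial-type cells without one.

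Per UMI of Adipoq and Lepr, members held 6.29 and 2.50 UMIs of Cxcl12. The ratio was 3.25 and 3.02 in reticular cells, 3.32 and 2.86 in the free RNA of barcodes with at most 100 UMIs, and 19.3 and 12 in arterial-type cells. Members thus lay near the reticular ratio in mouse 2 and above it in mouse 1, and arterial-type cells lay far above it in both. The part of reticular RNA in the members' Cxcl12 was not tested.

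The reporter of the sort was read as the eGFP feature. The eGFP feature was at 1584 and 2741 CPM in members, 3574 and 3463 CPM in arterial-type cells, 11749 and 11058 CPM in reticular cells and 214 and 152 CPM in blood cells. Members against arterial-type cells gave a log2 fold change of -0.60 (SE 0.26, edgeR adjusted p = 0.16, and 0.0017 with the mouse as a block). Without mixed cells eGFP was at 897 and 634 CPM in members, with a log2 fold change of -2.09 (edgeR adjusted p = 1.1e-04). At an equal depth of 2000 UMIs the expected share of members with an eGFP UMI was 63.4% in mouse 1 (95% interval 41.9 to 81.5%). It was 73.5% in mouse 2 (53.5 to 88.2%), and the shares at full depth were 100% and 85.7%. Blood cells gave 12% and 14.4% at that depth, and arterial-type cells 90.9% and 89.6%. The tdTomato feature was at 116 and 220 CPM in members and 115 and 106 CPM in arterial-type cells and was not called (edgeR adjusted p = 0.15, and 0.045 with the mouse as a block). Mixed members held 204 and 317 CPM of tdTomato. Without mixed cells it was at 87.3 and 94.0 CPM in members and 116 and 110 CPM in arterial-type cells. The iCreER feature had no UMI in either class. Other added features were EYFP and a second WPRE construct, whose sequences resemble those of eGFP and tdTomato, so the reporter counts are uncertain by an unknown amount.

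**Figure D4:**
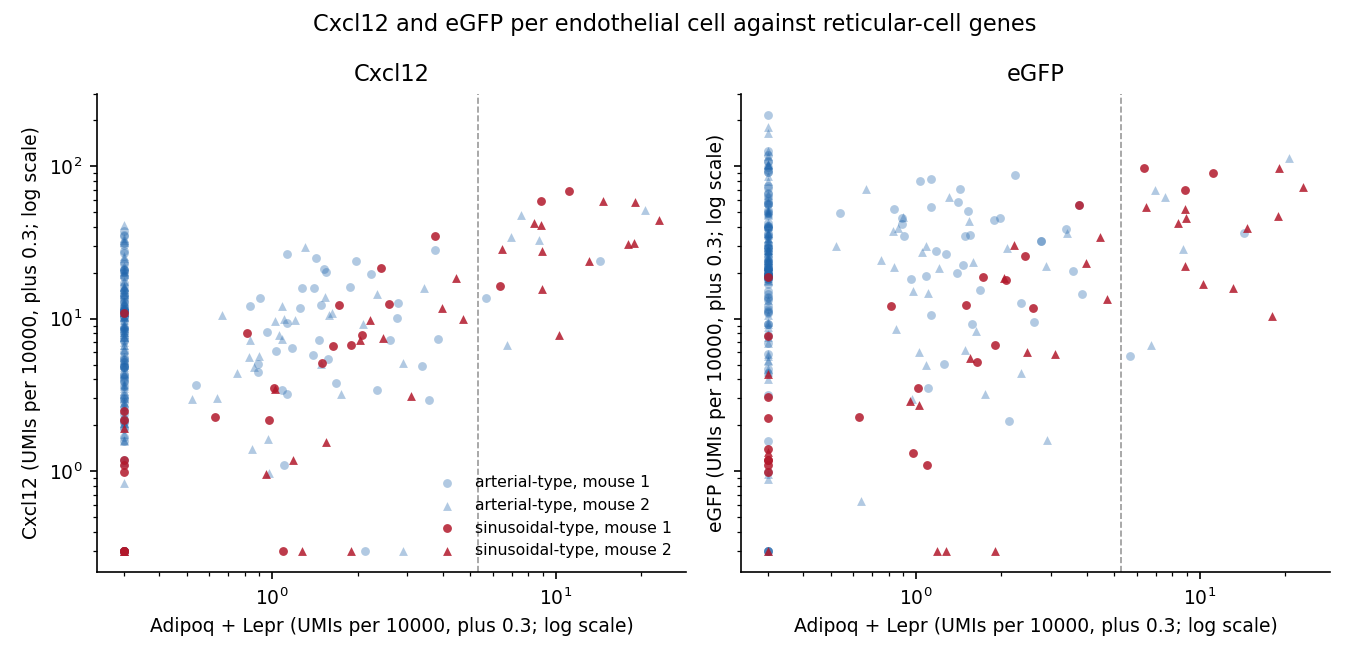
Cxcl12 (left) and eGFP (right) against Adipoq plus Lepr in each endothelial cell, in UMIs per 10000 plus 0.3 on logarithmic axes, with sinusoidal-type cells in red, arterial-type cells in blue and the dashed line at the limit of 5 UMIs per 10000. Summed over the cells at the left edge, without Adipoq or Lepr, members are lower than arterial-type cells in both genes in each mouse. Single cells of these classes overlap there.

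Kitl, the gene of stem cell factor, was at 79.5 and 319 CPM in members against 615 and 540 CPM in arterial-type cells, and 1 member of mouse 2 held 44.3% of its UMIs there. Its log2 fold change of -1.43 (SE 0.52) had an edgeR adjusted p of 0.11, and of 2.2e-04 with the mouse as a block. Without mixed cells the levels were 51.2 and 34.6 CPM and the log2 fold change -3.64 (edgeR adjusted p = 1.4e-05). Igf1 was at 186 and 270 CPM against 16.1 and 63.4 CPM and was called higher with and without mixed cells, though not without the filter on low counts. Against reticular cells Igf1 was called lower in members. Pdgfb and Pdgfd, growth factors for mural cells, were lower, with log2 fold changes of -2.83 and -3.00. Bmp4 was called higher with all cells but not without mixed cells (edgeR adjusted p = 0.34).

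The other growth factor receptors and ligands were described in the VEGF, angiopoietin and sphingosine list, with 5 of 17 genes higher and 4 lower. Besides Flt4, Nrp2 and Kdr, the higher genes were Vegfa and Angpt1, both of which reticular cells held at higher levels, 521 and 581 CPM and 227 and 206 CPM. Members held 70.4 and 218 CPM of Vegfa and 22.7 and 47.1 CPM of Angpt1. Both calls were lost without the filter on low counts, and Angpt1 could not be tested without mixed cells. Vegfc was at 9.09 and 74.9 CPM against 243 and 201 CPM, and Pgf had 1 UMI in members, a ratio of 117 in favour of arterial-type cells (20.9 to 4647). Both calls were lost without the filter as well.

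Of the 12 reticular genes, 11 were tested and 9 were higher in members than in arterial-type cells, with a median log2 fold change of 2.48. Adipoq, which set the limit for mixed cells together with Lepr, was at 95.4 and 456 CPM against 20.1 and 46.2 CPM. Without mixed cells 7 were higher and 1 lower. Gas6, a ligand of the TAM receptors, was at 495 and 824 CPM against 155 and 231 CPM, and Chrdl1, a BMP antagonist, at 86.3 and 141 CPM against 8.03 and 10.6 CPM, and both were called with and without mixed cells. Of 5 osteoblast genes, Ibsp and Col1a1 were called higher, and Col1a1 was not called without mixed cells (log2 fold change -0.16, edgeR adjusted p = 0.92).

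The second comparison set sinusoidal-type cells against reticular cells, their neighbours on the vessel wall and the largest class of the sort. Of 12634 genes tested, 1737 were higher (13.7%) and 1454 lower (11.5%) in members, and the median log2 fold change was -0.16. All 15 pan-endothelial genes were higher. Members needed endothelial genes and reticular cells could hold no Cdh5 UMI, so the rules favoured this outcome. Of 17 VEGF, angiopoietin and sphingosine genes, 9 were higher and 5 lower. The receptor genes Kdr and Tek had log2 fold changes of 10.05 and 10.19, while the ligand genes Angpt1, Vegfa and Vegfc were lower in members, at -2.58, -1.88 and -2.48. S1pr1, the sphingosine receptor of vessels, was at 500 and 642 CPM against 177 and 191 CPM (log2 fold change 1.68).

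Most niche factors were higher in reticular cells. Of 21 tested, 11 were lower in members and 4 higher, with a median log2 fold change of -1.82. Cxcl12 had a log2 fold change of -2.36 (SE 0.26, edgeR adjusted p = 0.0019), and of -4.12 without mixed cells. Kitl and Csf1, the macrophage growth factor gene, were lower, with log2 fold changes of -2.35 and -2.16. Rspo3, a Wnt agonist, was at 52.3 and 40.7 CPM in members against 437 and 346 CPM (log2 fold change -3.04). The 4 genes higher in members were the Notch ligands Dll1 and Dll4, with log2 fold changes of 7.61 and 8.77, Tgfb1 with 2.65 and Pdgfb with 7.96. Jag1 was at 43.2 and 57.8 CPM against 52.0 and 33.8 CPM and was not called. All 10 reticular genes tested, other than Adipoq and Lepr which define that class, were lower in members, with a median log2 fold change of -2.45, and so were the 3 reporters.

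Members also differed among themselves. The ratio of the observed variance of depth-scaled UMIs to that of Poisson counts was computed for 4265 genes with a mean of at least 0.5 UMI per member in both mice, and its median, taking the lower mouse, was 0.976. The highest ratios were those of Gm42418 (212) and Malat1 (186), both abundant noncoding transcripts, and of the mitochondrial genes mt-Atp6 (35.6), mt-Co3 (32.6) and mt-Co1 (26.0). Col1a1 had a ratio of 75.4, with most of its UMIs in 1 member of each mouse as given above. Col1a2 had a ratio of 61.5, and 1 member held 91.2% of its UMIs in mouse 1 and another 47.4% in mouse 2. Fabp4 had a ratio of 39.3, with up to 324 and 321 UMIs in a cell. Stc1, a secreted glycoprotein hormone gene, had a ratio of 24.3, with no UMI in 9 and 7 members and up to 98 and 56 UMIs in others. Stc1 was at 734 and 659 CPM in members and 465 and 491 CPM in arterial-type cells and was called higher (log2 fold change 0.64, edgeR adjusted p = 0.039). The eGFP feature was the 10th gene, with a ratio of 24.2.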

How the data were processed

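Deposited values were raw UMI counts per feature and barcode for 2 libraries, unfiltered for cells, made by the authors with Cell Ranger 3.0.0 per the file headers and mm10 with reporter sequences added. The annotation release was not given in the sources used here. Members and gene lists were chosen with earlier results of these data known. Counts were summed per mouse and class and tested with edgeR 4.0.16 in R 4.3.3 (TMM scaling, filterByExpr, quasi-likelihood test, Benjamini-Hochberg adjustment over all genes tested). CPM are raw UMIs per 1000000 and intervals cover counting error only. Intervals of shares of counted cells are exact binomial. For shares at 2000 UMIs the same formula was applied to an expected, fractional number of cells, so these intervals are approximate. DESeq2 1.42.0, other cell filters, thinning to 2000 UMIs, removal of the highest Scrublet scores (scanpy 1.11.5) and a block for the mouse were alternatives. Classes of 1 mouse came from the same animal and library, and their deviations correlated at 0.15 and 0.10 in the 2 comparisons. Leaving out cells with reticular or osteoblast transcripts was chosen after seeing the data. Doublets were kept in the main result. In data simulated for the arterial-type comparison (8510 genes), 12% of 100 genes changed by a log2 fold of 1 and 76% of 100 changed by 2 were recovered. The simulation gave every gene the same dispersion, a measure of spread between replicates. It was set above the common dispersion of 0.034 fitted to the data, so these percentages describe the simulated setting only. Named genes were those of the lists, and by rule the 15 highest and 10 lowest called genes at 50 CPM or more and the 10 most variable, of which a few are not reported here. For the reticular comparison they were the niche, receptor and reticular lists. Scripts ran in Python 3.11.15.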

Additional observations from a re-analysis of the deposited data

How the results depend on the processing

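Of 1561 genes called between sinusoidal-type and arterial-type cells, DESeq2 called 941 (534 higher and 407 lower, of which 921 shared their direction with the main calls), no filter on low counts left 557 (282 and 275, of 14954 tested), and thinning each cell to 2000 UMIs left 555 (284 and 271, of 2761 tested). The other counts were 1129 to 1627. With the mouse as a replicate block the calls were 2151, and all 1561 remained. In the reticular comparison 3191 genes became 1033 with thinning (503 and 530), 2809 with the replicate block and up to 4265 with no filter. The lists had 134 calls, 70 with no filter (33 and 37) and 101 to 185 under the other settings, with 185 under the replicate block. Among the 304 named and list genes, the calls lost numbered 68 with no filter, 20 with DESeq2, 16 with the split of UMIs, 15 without mixed cells, 11 with thinning, 5 with a margin of 5 UMIs, 5 with the highest Scrublet scores removed, 2 with stricter cell filters and none with the block, which added 54. These losses count only genes still tested under the setting, and leave out genes whose direction turned. Calls that fell below the filter are thus missing from them. Of all 1561 main calls, 766 were not tested after thinning, 209 with the split of UMIs and 126 without mixed cells. Directions turned without mixed cells for Mmp2 (0.06 to -3.07), Col1a1 (4.8 to -0.16) and Alpl (0.93 to -3.87), each called with or without these cells. Under no other setting did a gene called in either fit turn, while genes called in neither, such as Cxcl12 (0.69 to -0.83 without mixed cells), did. Causes of these changes were not tested, except that fewer genes were tested after thinning and more without the filter. A mean of 26.5 members per mouse became 24 with stricter filters, 17.5 without mixed cells and 21.5 when the rule was applied after thinning, and their mean share of endothelial cells, 18.6%, became 13.4% without mixed cells. The mean share with an eGFP UMI at 2000 UMIs, 68.4%, became 54.1% without mixed cells and 92.9% at full depth. Leaving out 1 mouse left no residual degrees of freedom and hence values without a test. The direction was then kept by 1561 of 1561 and by 3190 to 3191 of 3191 called genes and by 134 of 134 list calls. These genes were called from both mice together, so the outcome was nearly fixed in advance and is not independent support. Members numbered 25 to 28, their share was 17.0 to 20.3% and the eGFP share 63.4 to 73.5%. With 53 members in 2 mice, genes of few UMIs limit what can be called, and whether mixed members are doublets or hold free RNA was not tested beyond the values given.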

Other observations

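Neutrophil transcripts marked the arterial-type cells of 1 mouse. The 5 neutrophil genes summed to 7442 CPM in arterial-type cells of mouse 1 and 167 CPM in mouse 2, against 218 and 148 CPM in sinusoidal-type members and 149122 and 189399 CPM in blood cells. None of the 4 such genes tested was called with all cells, and S100a8 and S100a9 were lower in members without mixed cells. Pf4, a platelet chemokine gene, was at 47.7 CPM in members of mouse 1 and 4.28 CPM in mouse 2, without Ppbp in either. Rgs5, a pericyte gene, had no UMI in members and was at 247 CPM in arterial-type cells of mouse 1 and 7.27 CPM in mouse 2.

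Cxcl9 and Cxcl10, interferon-induced chemokine genes, were at 198 and 145 CPM in members of mouse 1 and at 44.9 and 15 CPM in mouse 2, against 35.7 CPM or less in arterial-type cells.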
